A study of Mus musculus with 12 samples.

Results

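The Notch receptors Notch1, Notch2, Notch3 and Notch4, the ligands Jag1, Jag2, Dll1 and Dll4 and the target genes Hes1 and Hey1 were examined for m6A peaks in mouse lung. A peak was counted for one of these 10 genes when the authors' annotation assigned it to the gene or when it had been called on the gene's identifier. By this rule 24 of 27292 peaks belonged to the 10 genes in the list of the asthma group, and 26 of 26102 in the list of the control group. Both lists together name 17612 genes.

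The lungs came from female BALB/c mice, 6 to 8 weeks old, with 3 mice in each group. OVA mice, the model of acute allergic asthma, were sensitised on days 0 and 7 with ovalbumin in alum, then inhaled a 3% ovalbumin aerosol daily from day 14 to day 20. PBS mice, the controls, received phosphate-buffered saline without ovalbumin or alum, and lungs of both groups were taken on day 21. For that day the paper describes a methacholine provocation test, after which lavage fluid and lungs were collected. It does not single out the sequenced mice. In MeRIP-seq, RNA fragments are pulled down with an antibody against N6-methyladenosine (m6A) to give an IP library and are compared with an input library made without the pull-down, so the 2 groups gave 6 IP and 6 input libraries. Whole lung was sequenced, and the model is an acute one.

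Each group has 1 peak list, so each peak has 1 value per group, with no replicate and no error, and no difference between OVA and PBS was tested here. The authors' own comparison of the groups was not used here. Fold enrichment states how many times more signal a peak had in IP than in input, and log10 p is the logarithm of the authors' p for that enrichment, more negative for a peak further from the input. All differences given below are descriptions of 2 lists. Read numbers per library and per peak were not used here. Positions are on GRCm38 and count from 1.

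Notch receptors are membrane proteins that are activated by ligands of the Jagged and Delta-like families on a neighbouring cell. Ligand binding opens the receptor to cleavage by ADAM proteases and then by gamma-secretase, and the freed intracellular domain enters the nucleus, joins RBPJ and Mastermind-like proteins and switches on genes such as Hes1 and Hey1. In the lung the pathway is known for the choice between secretory and ciliated fates in the airway epithelium, for vessel growth and for T helper cell differentiation. m6A is the most abundant internal modification of mRNA, is placed by the METTL3 complex and is known to be frequent near stop codons and in 3′ UTRs.

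Each of the 10 genes had at least 1 peak in both lists, as did 82.8% of the 17612 genes with a peak in either list. The strongest enrichment in the OVA list was on Dll4, at 24.3-fold, followed by Notch2 at 22.9-fold and Jag2 at 17.4-fold. In the PBS list Jag2 came first at 18.3-fold, followed by Dll4 at 18.1-fold and Notch2 at 17.7-fold. The lowest of the genes' highest values were those of Notch4 (6.60-fold) and Notch3 (7.85-fold) in the OVA list and of Notch3 (6.73-fold) and Notch4 (7.50-fold) in the PBS list. Without replicates it cannot be said which neighbours in these orders differ. Over the 10 genes the median of the highest fold enrichment per gene was 13.2 in OVA and 12.6 in PBS, beside 9.50 and 8.99 over the 11387 and 11066 RefSeq protein-coding genes with a peak called on them.

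**Figure D1:**
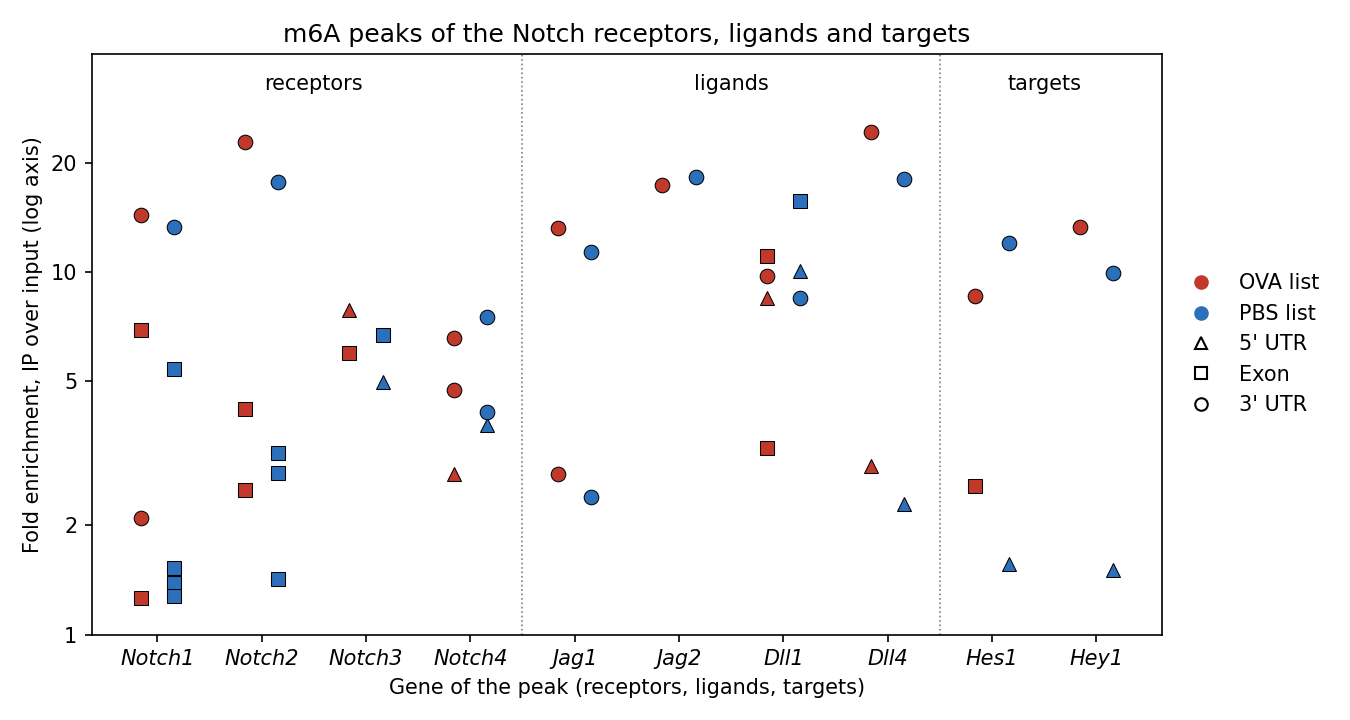
Fold enrichment of IP over input (vertical log axis) of each peak of the 10 genes (horizontal axis), with the OVA list in red and the PBS list in blue and the shape giving the annotated region. Each point is 1 peak of the list of a group, with no error, and the highest points are 3′ UTR peaks of Dll4 (24.3) and Notch2 (22.9) in the OVA list.

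Among the receptors, Notch1, which acts in many lung cell types including endothelium and T cells, had 4 OVA peaks and 5 PBS peaks. Its strongest OVA peak lay in the 3′ UTR at chr2:26458173-26458892 and was enriched 14.4-fold. The matching PBS peak at chr2:26458203-26458892 had 13.3. The log10 p was -1900 in OVA and -3330 in PBS, so the PBS list gave the lower p although the OVA list gave the higher ratio. The end of this peak is shared with other genes. A peak called on 0610009E02Rik at chr2:26457966-26458888 had the same fold enrichments, 14.4 and 13.3, and a peak called on Gm13568 overlapped it too, with 2.78 in OVA and 1.85 in PBS. The lists give no strand of the reads, so enrichment there cannot be told apart between Notch1 and these genes.

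The remaining Notch1 peaks lay further into the gene. A peak of 3 exonic blocks at chr2:26460300-26462436, annotated to exon 32 of 34, had 6.92-fold enrichment in the OVA list, and its PBS counterpart, ending at 26462406, had 5.40. Between it and the 3′ UTR peak the OVA list had 1 peak of 690 bp at chr2:26459371-26460060 with 2.10, where the PBS list had a pair of peaks of 181 bp with 1.39 and 1.53. A short peak in exon 25 was weak in both lists, at 1.26 in OVA and 1.28 in PBS. Only 0.234% of OVA peaks and 0.310% of PBS peaks had a lower fold enrichment than this exon 25 peak.

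Notch2, a receptor needed for secretory cells of the airway, had 3 OVA peaks and 4 PBS peaks, and covered the most exonic sequence of the 10 genes, 4376 bp in OVA and 3898 bp in PBS. Its largest peak ran over nearly 3 kb of the 3′ UTR at chr3:98147366-98150361, ending 6 bp before the RefSeq end of the gene. The OVA peak was enriched 22.9-fold, above 94.4% of the peaks of its list. The PBS peak at chr3:98147426-98150331 had 17.7, above 90.5% of the PBS peaks. In exon 34 of 34, just before it, the OVA list had 1 peak of 840 bp with 4.19, and the PBS list had a peak of 421 bp with 3.17 and one of 211 bp with 1.42. A peak at chr3:98134626-98135819, in exon 24 of 34, had 2.50 in the OVA list, and its PBS counterpart in exon 25, chr3:98135430-98135789, had 2.80. All 7 of these peaks were called on Notch2 but assigned to Adam30 or Gm42820.

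Notch3, the receptor of vascular smooth muscle and pericytes, had 2 peaks in each list, at opposite ends of the gene. The peak near its 3′ end, at chr17:32122348-32122857 in the last of 33 exons, had 5.99 in the OVA list. In the PBS list the peak reached back into exon 32, to 32124308, and had 6.73. The 5′ UTR peak had the same coordinates in both lists, chr17:32166732-32166852, with 7.85 in OVA and 4.98 in PBS. This ratio of 1.58 was the largest difference towards OVA among the 10 genes, but the peak is 121 bp long and its log10 p was only -11.9 and -9.37.

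Notch4, a receptor mostly of endothelial cells, had 3 peaks in each list. Its 5′ UTR peak was short, 61 bp at chr17:34564298-34564358 with 2.77 in OVA and 91 bp from 34564268 with 3.78 in PBS. Near the 3′ end, the peak of 2 blocks at chr17:34587205-34587724 had 6.60 in the OVA list, and the PBS peak from 34587175 had 7.50. The last peak, chr17:34588024-34588503 in the OVA list, ended 40 bp before the RefSeq end of the gene and had 4.73, beside 4.12 in the PBS list. Thus 2 of the 3 Notch4 pairs had the higher ratio in PBS.

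Among the ligands, Jag1, a ligand with known roles in vessel and bile duct development, had 2 peaks per list, all in the 3′ UTR. The stronger one, chr2:137082980-137083398 in the OVA list, had 13.2 there and 11.4 in the PBS list. The weaker one had the same coordinates in both lists, chr2:137081994-137082293, with 2.77 in OVA and 2.39 in PBS. Jag2, the other Jagged ligand, had 1 peak per list, in the 3′ UTR at chr12:112908208-112909284 for OVA. It had 17.4-fold enrichment in OVA and 18.3 in PBS, a ratio of 1.05 towards PBS. Jag1 and Jag2 had no peak outside the 3′ UTR in either list.

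Dll1, a Delta-like ligand with known roles in lymphocyte development, had 4 OVA peaks and 3 PBS peaks. Its 3′ UTR peak at chr17:15367653-15368072 had 9.77 in the OVA list, and the PBS peak from 15367563 had 8.47. Upstream of it the PBS list had a single peak of 3 blocks and 898 exonic bp at chr17:15368192-15370245, with 15.7. The OVA list had a pair of separate peaks within that span, chr17:15368222-15368696 with 11.1 and chr17:15368905-15369114 with 3.27. The ratio of the matched pair, 1.41 towards PBS, was the largest in that direction, and the PBS peak is longer than the OVA peak it was matched with, which covers 40.1% of it. The 5′ UTR peak at chr17:15375191-15375669 had 8.48 in the OVA list, and the PBS peak, ending at 15375699, had 10.1.

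Dll4, the ligand that restrains sprouting of blood vessels, had 2 peaks in each list. Its main peak, 3 blocks at chr2:119332229-119335425 in the OVA list, had 24.3-fold enrichment, above 95.2% of OVA peaks. The PBS peak began at 119332080 and had 18.1, above 91.0% of PBS peaks. The log10 p of this peak was -2540 in OVA and -4610 in PBS, the lowest of all peaks of the 10 genes in each list. A 5′ UTR peak with identical coordinates in both lists, chr2:119325784-119326083, begins at the first base of the RefSeq gene and had 2.91 in OVA and 2.29 in PBS.

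The target genes Hes1 and Hey1 encode transcriptional repressors of the basic helix-loop-helix class. The 3′ UTR peak of Hes1 had the same coordinates in both lists, chr16:30067167-30067736, and had 8.61 in OVA and 12.0 in PBS, a ratio of 1.39 towards PBS. Hey1 went the other way, with 13.3 in the OVA list at chr3:8664377-8665693 and 9.96 in the PBS list from 8664347, a ratio of 1.34 towards OVA. Neither of these differences can be set against a spread between mice.

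The peaks found in 1 list only were on these targets. In the OVA list Hes1 had a peak of 2 short blocks from exon 1, chr16:30065610-30065862, with 2.57 and a log10 p of -4.19. In the PBS list it had a peak of 61 bp in the 5′ UTR, chr16:30065490-30065550, with 1.57, a log10 p of -1.64 and a log10 FDR of -0.874, so that it is the single peak of the 50 with an FDR above 0.05. The Hes1 peaks do not overlap. Hey1 had a PBS peak of 90 bp in the 5′ UTR, chr3:8666927-8667016, with 1.51 and a log10 p of -5.77. All 3 are weak peaks that begin within 253 bp of the genes' RefSeq starts.

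Across the 10 genes, 23 of 24 OVA peaks overlapped a PBS peak by at least 1 bp of their exonic blocks, and 24 of 26 PBS peaks overlapped an OVA peak. That leaves 1 OVA peak and 2 PBS peaks without a counterpart, where 19.4% of all OVA peaks and 14.5% of all PBS peaks had none. Exact agreement of the ends was rarer, with 4 peaks of each list identical in start and end. Peak ends depend on coverage as well as on the modification, and no coverage was used here.

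When each peak was matched with the peak of the other list that it overlapped most, in both directions, the 10 genes gave 22 pairs. None of the 22 pairs was at least 2-fold higher in the OVA list, where 7.78% of all 20531 such pairs were. None was at least 2-fold higher in the PBS list either, where 4.92% of all pairs were. At 1.5-fold, 2 pairs were higher in the OVA list, the 5′ UTR peak of Notch3 (1.58) and the 690-bp peak of Notch1 (1.51), and 0 in the PBS list, beside 18.7% and 10.4% of all pairs. Such shares amount to few pairs among 22, and nothing is read from these counts.

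Fold enrichment was higher in the OVA list for 13 of the 22 pairs and higher in the PBS list for 9. Over all pairs 61.4% were higher in the OVA list. The median log2 ratio of OVA over PBS was 0.20 for the 10 genes and 0.13 for all pairs. The median fold enrichment of the matched peaks was 6.66 in OVA and 6.02 in PBS, a shift of 0.15 on the log2 scale between the lists. Relative to that shift, 12 of the 22 pairs were higher in OVA and 10 in PBS, beside 48.9% of all pairs higher in OVA, and the pair that changed direction was the 3′ UTR peak of Notch1. The receptors, ligands and targets each had pairs in both directions with and without this scaling.

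**Figure D2:**
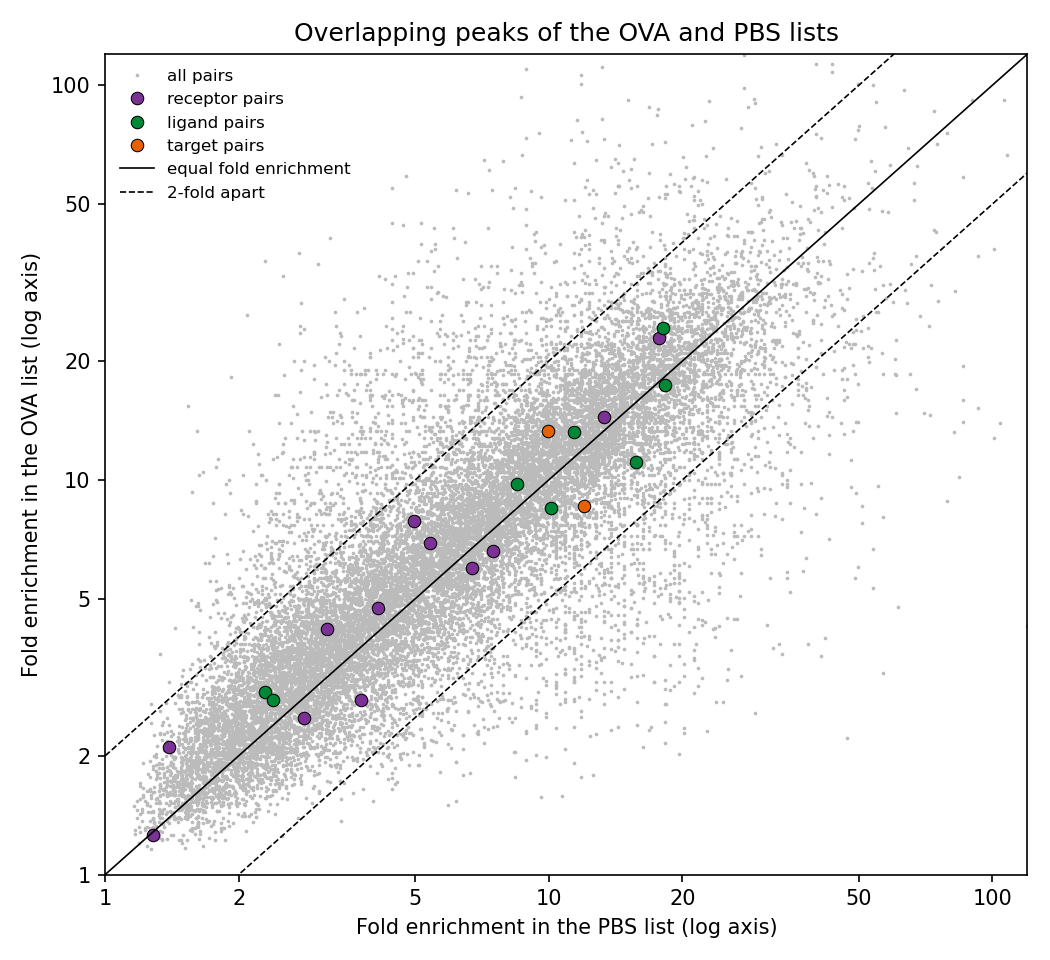
Fold enrichment in the PBS list (horizontal log axis) and in the OVA list (vertical log axis) of all 20531 pairs of overlapping peaks (grey) and of the 22 pairs of Notch receptors, ligands and targets (coloured). All 22 coloured points lie between the dashed lines that mark a 2-fold difference, and 19 grey pairs fall outside the plotted range.

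The p values leaned to the other group. In 17 of the 22 pairs the PBS list had the lower log10 p, including the pair of lowest p of each of the 10 genes, whereas the PBS list had the lower p in 40.3% of all pairs. In 9 of the 22 pairs the fold enrichment was higher in OVA and the p lower in PBS, beside 17.0% of all pairs. The 5 pairs with the lower p in the OVA list were on Jag1, Notch1, Notch2, Notch3 and Notch4 and in none of them the peak of lowest p. A peak's p depends on the number of reads as well as on the ratio. This count was made after the values had been seen and has no test.

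Markers of lung cell types, read the same way, were uneven. Of the 13 pairs on the endothelial markers Pecam1, Cdh5, Tek, Kdr and Vwf, 8 had the lower p in the PBS list, as did 5 of 8 pairs on fibroblast markers. The fibroblast pairs were divided by gene, with the lower p in PBS on Pdgfra and Tcf21 and in OVA on Col1a1 and Col1a2. Among the endothelial markers Kdr, a receptor for vascular endothelial growth factor, had the lowest p in each list, with a log10 p of -2850 in OVA and -6040 in PBS. The pair on Vwf went the other way, with -339 in OVA and -139 in PBS, as did some pairs on Pecam1, Cdh5 and Tek. None of 12 pairs on goblet cell markers and none of 8 pairs on markers of alveolar type 2 cells had the lower p in the PBS list. Markers of alveolar type 1 cells had it in 4 of 8 pairs, of smooth muscle and pericytes in 2 of 8 and of ciliated cells in 2 of 6. Immune cell markers had few pairs, and 0 of 3 on T cells and 0 of 2 on macrophages had it. The same held for the 1 pair each on B and plasma cells, eosinophils and neutrophils, while the 1 pair on club cells had it. Over all marker lists it was 22 of 73 pairs. Marker peaks were taken by called or assigned gene, so some had been called on other genes. Of the peaks of the goblet cell marker Spdef, 2 of 5 in OVA and 1 of 4 in PBS were called on Spdef. The most enriched peak of Ager in each list was called on Pbx2, and that of Foxj1 in the OVA list on Rnf157. In bulk lung, fewer cells of a type and less RNA per cell cannot be told apart, and neither was measured here. The part of cell composition in the p values of the Notch genes was not tested.

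By annotated region, 12 of the 24 OVA peaks lay in 3′ UTRs (50.0%), 8 in other exons (33.3%) and 4 in 5′ UTRs (16.7%). All OVA peaks divide into 52.7%, 35.7% and 11.6%. In the PBS list the 10 genes had 11 peaks in 3′ UTRs (42.3%), 9 in other exons (34.6%) and 6 in 5′ UTRs (23.1%), beside 52.7%, 35.9% and 11.4% of all PBS peaks. These shares rest on few peaks. The 3′ UTR peaks had the highest median fold enrichment, 11.5 in the OVA list, against 3.73 for other exons and 5.38 for 5′ UTRs. Single peaks departed from this order, such as a 3′ UTR peak of Notch1 with 2.10 and an exon peak of Dll1 with 11.1. The PBS peaks within that Notch1 peak were annotated to exon 34 of 34, so the same stretch can carry different region labels in the lists. Over all OVA peaks the medians of these regions lay closer together, at 6.05, 5.13 and 5.31. In the PBS list the medians for the 10 genes were 11.4, 2.80 and 3.03, and for all peaks 5.85, 4.99 and 5.43.

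Position was also measured along the gene. Of the peaks of the 10 genes, 10 of 24 in the OVA list (41.7%) and 11 of 26 in the PBS list (42.3%) ended within 1000 bp of the RefSeq 3′ end of their gene. Among all peaks placed on their protein-coding gene, 30.2% in OVA and 29.8% in PBS did. The peaks of the 10 genes were also wider, with a median exonic width of 480 bp in OVA and 420 bp in PBS, beside 329 and 327 bp over all peaks. Most of them were assigned to transcripts that the authors' annotation does not class as protein-coding. In the OVA list 4 of 24 were assigned to a protein-coding transcript, 10 to a retained-intron transcript and 9 to a processed transcript, beside 41.8%, 20.4% and 14.4% of all OVA peaks. In the PBS list it was 7, 9 and 9 of 26, beside 42.5%, 20.1% and 14.4% of all PBS peaks. The regions given are those of the same annotation.

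The number of peaks per gene ranged from 1 to 5. Notch1 and Dll1 had 4 peaks in the OVA list, a number reached by 12.3% of protein-coding genes with a called peak. Notch1 had 5 in the PBS list, reached by 5.77%. The median over protein-coding genes was 2 in each list. Genes with long exons can hold more peaks, and exon length was not taken into account.

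Sequence at a peak could be shown where the peak overlaps the promoter window that RefSeq gives for the gene, from 250 bases before to 50 after a transcript start. A window was found for 8 of the 10 genes, all but Hes1 and Hey1, and the 5′ UTR peaks of Dll4, Notch3 and Notch4 reached into theirs. The m6A consensus has 5 letters, A, G or T first, then A or G, then AC, then A, C or T, and was searched on the transcript strand alone, with overlapping matches counted separately. The first transcribed bases common to the OVA and PBS peaks follow on GRCm38.p6, with matches in capitals, at most 30 of them for each gene. They are shown because, among the 8 genes with a window, no other peak reached into one.
Dll4, plus strand, chr2:119325784-119325813: atataagaaaggctctggagcaagcaggtt
Notch3, minus strand, chr17:32166841-32166852: cgtgcccggagc
Notch4, plus strand, chr17:34564298-34564327: ggAAACAgctcAGACTgaggcgtgcagcag

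The 30 bases of Notch4 hold 2 matches, AAACA and AGACT. The 30 bases of Dll4 and the 12 bases of Notch3 hold 0. At the same distance from the start, 36.8% of all 32851 windows hold a match for Notch4, 37.5% for Dll4 and 12.9% for Notch3. Searched to the end of the window, the 47 bases of Notch4 within both peaks hold the same count of 2 and the 50 bases of Dll4 hold 0, where 51.5% and 54.4% of all windows hold a match. A match describes the letters only, and the rest of these peaks and all 3′ UTR peaks were not searched.

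Other genes of the pathway were taken from a list of 72, covering further ligands, ligand endocytosis, receptor glycosylation and cleavage, gamma-secretase, the nuclear complex, corepressors, receptor turnover and further targets. A peak was found for 61 of the 72 in OVA and for 58 in PBS. All 58 were among the 61. Of the 61 genes with a peak in either list, 58 had one in both, 3 in OVA only and 0 in PBS only, beside 82.8%, 10.2% and 6.95% of the 17612 genes with a peak in either list. The 3 were Dlk2, a Delta-like relative, Mib1, a ubiquitin ligase needed for ligand endocytosis, and Kat2b, a histone acetyltransferase. Their OVA peaks were weakly supported, with log10 p of -3.19 for Dlk2 (11.8-fold), -6.06 for Mib1 (1.86-fold) and -4.18 for Kat2b (14.9-fold).

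By group of the pathway, all 8 genes of receptor glycosylation and cleavage had a peak in both lists, as did 12 of 13 corepressors, 12 of 13 genes of receptor turnover and inhibition, 9 of 10 of the nuclear complex and 6 of 7 of gamma-secretase. Among ligand endocytosis genes it was 3 of 5 and among further targets 8 of 12. Of the 4 further ligands Dll3, Dlk1, Dlk2 and Dner, none had a peak in both lists. These counts are of all genes of a group, with or without a peak, so the share of 82.8% does not apply to them, and the groups are too small to be ranked. The only PBS peak of the corepressor Hdac1 was called on Lck and is only assigned to Hdac1. By called gene alone 57 pathway genes had a PBS peak. A gene without a peak may have had too few reads for one, and transcript levels were not analysed here.

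The highest fold enrichment of the pathway in each list was on Myc, a target and growth regulator, in its 3′ UTR at chr15:61989598-61990314, with 75.5 in OVA and 79.0 in PBS. In the OVA list Maml2 followed with 58.0 and Spen with 38.0. The Maml2 peak, at chr9:13290061-13291351, had been called on the neighbouring gene Ccdc82 and is only assigned to Maml2. The highest PBS value of Spen was 33.2. Spen, the large corepressor that binds RBPJ, also had the most peaks, 8 in OVA and 10 in PBS. It was followed by the coactivator Maml3 and the corepressor Tle3 with 7 each in the OVA list, and by Maml2 with 7 and Maml3 with 6 in the PBS list. Of the 7 Maml2 peaks, 5 were called on Maml2.

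Of 130 matched pairs on pathway genes, 5 were at least 2-fold higher in OVA and 2 in PBS, beside the 7.78% and 4.92% of all pairs. Those higher in OVA were on the targets Hes2 (11.8 in OVA, 4.15 in PBS), Gata3 (5.26 and 2.26) and Hey2 (20.5 and 9.87), on Neurl1a, a ubiquitin ligase (7.74 and 3.80), and on the Ccdc82 peak assigned to Maml2 (58.0 and 25.1). Those higher in PBS were 5′ UTR peaks of the coactivator Maml1 (1.75 in OVA, 4.33 in PBS) and the corepressor Tle4 (3.31 and 8.12). Relative to the shift between the lists 3 pairs, on Hes2, Gata3 and Maml2, were still at least 2-fold higher in OVA, and the 2 pairs on Maml1 and Tle4 were still at least 2-fold higher in PBS. The Gata3 pair joins 3′ UTR peaks of 180 bp in OVA and 121 bp in PBS that share 31 bp, with log10 p of -6.48 and -3.40, so most of each peak is outside the other. The main 3′ UTR peak of Gata3, a T helper type 2 regulator, had 15.6 in OVA and 18.1 in PBS. The Hes2 peaks, of 181 and 121 bp, share 91 bp and had log10 p of -3.19 and -5.12. The Maml1 peaks, of 150 bp in OVA and 330 bp in PBS, share 150 bp and had log10 p of -2.82 and -16.2. In 47 of the 130 pairs (36.2%) the p was lower in the PBS list, beside 17 of 22 for the 10 Notch genes.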

How the data were processed

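RNA from the lungs of 3 mice per group was depleted of ribosomal RNA and fragmented, and an IP and an input library were made from each mouse. The authors trimmed reads with FASTP and aligned them with HISAT2. Their peaks come from exomePeak and the gene assignments from ChIPseeker. The deposited fold enrichment is a linear ratio of IP over input, and the deposited scores are log10 values of the peak's p and FDR. How the mice of a group were combined is not given in the sources used here, so peaks carry no replicate values, and depth per mouse was not used here.

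Called gene identifiers were turned into symbols for 99.9% of the peaks in each list. All 24 OVA and 26 PBS peaks of the 10 genes overlapped the RefSeq position of their gene on GRCm38.p6. Listed starts count from 0: in the OVA list 649 peaks start 1 below the start of their assigned transcript and 20 start on it. Starts are therefore printed 1 higher than listed. Peaks were compared by exonic blocks with a minimum of 1 bp. A comparison by strand had been planned, but the lists give only the strand of the assigned transcript, and strand was ignored. Pairs are peaks that are each other's largest overlap, the first in the list where equal. A 2-fold difference was counted as a difference, with no test. Pathway genes named are those with a peak in 1 list, with a pair at least 2-fold different, and the 3 with the highest fold enrichment or the most peaks in each list. A gene that this rule takes is not reported here. Genes were selected with earlier results of these data known, and so were the pathway and marker lists. The overlap code was tested on simulated peaks. The m6A consensus was searched only where 5′ UTR peaks reach into RefSeq promoter windows, and motif content of whole peaks was not analysed here. The work used Python 3.11.15, numpy 2.4.6, pandas 2.3.3 and matplotlib 3.10.9.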

Additional observations from a re-analysis of the deposited data

How the results depend on the processing

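Counts of peaks, of Notch genes with a peak and of pathway genes with a peak stayed within 1.5 times of the reported ones when peaks were taken by called gene alone, at an FDR under 0.05 or at a fold enrichment of at least 2. Those of peaks and of Notch genes also did so by assigned gene alone and at an FDR under 0.001, settings not run for the pathway genes. Assigned genes alone left 21 OVA and 22 PBS peaks and 9 of the 10 genes, since Notch2 has none. Counts of shared peaks stayed within 1.5 times under overlapping spans, an overlap of 50% of both peaks, and both thresholds, but identical start and end left 4 peaks in each list, as that setting asks for equal ends. A fold of 1.5 gave 2 pairs higher in OVA, against 0 at 2-fold, and no other setting gave a pair past its fold in either direction. Scaling by the median of the matched peaks moved the median log2 ratio from 0.203 to 0.057, by its own construction. Requiring the same called gene, and counting p values over pairs with an overlap of 50% of both peaks (16 of 20 lower in PBS), were chosen after seeing the data and stayed within 1.5 times as well. The motif search over whole peaks and its alternatives were not run, since no genome sequence was used here. No paired analysis was made, because each list gives 1 value per peak for its group and no result comes from a test. Without read numbers, no limit of depth can be given for a missing peak.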

Other observations

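Of 62 markers of lung and control cell types, 37 had a peak in both lists, 5 in the OVA list only, 3 in the PBS list only and 17 in neither. The 5 and the 3 are of 45 markers with a peak in either list, and the shares of all genes with a peak were 10.2% in OVA only and 6.95% in PBS only. All 5 markers of alveolar type 1 cells, all 5 of endothelium, all 4 of ciliated cells and all 4 of fibroblasts had a peak in both lists. Markers with an OVA peak only were Clca1 of goblet cells (3.55-fold, log10 p -999), Cyp2f2 of club cells (1.93-fold), Jchain of plasma cells (1.77-fold) and the T cell genes Cd3g (3.67-fold) and Cd8a (2.82-fold). Markers with a PBS peak only were the neutrophil genes S100a8 (2.15-fold) and S100a9 (2.59-fold) and Chil3 of macrophages (1.75-fold). Peaks were found in neither list for defining markers such as Sftpc, Scgb3a2, Acta2, Marco, Epx, Prg2 and Ly6g, and a missing peak does not show that the transcript was absent.

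Muc5ac, the gel-forming mucin of goblet cells, had 3 peaks in each list, with a lowest log10 p of -461 in OVA and -6.13 in PBS. Its highest fold enrichment, 20.7, was that of a PBS peak, so ratio and p pointed to different groups. Muc5b was alike, with a highest fold enrichment of 7.33 in OVA and 10.9 in PBS and a lowest log10 p of -1510 and -227. Spdef was not, with 22.5 in OVA and 8.55 in PBS and a lowest log10 p of -424 and -335. The 12 pairs on goblet cell markers, some of them only assigned to Spdef, had a median log2 ratio of OVA over PBS of 0.166. In 9 of the 22 Notch pairs the groups were exchanged, with the higher ratio in OVA and the lower p in PBS. The 5′ UTR pair of Notch4 went as Muc5ac did. The liver genes Alb, Apoa2 and Fgb had no peak in either list, and of the neuronal genes only Rbfox3 had one, with a lowest log10 p of -7.28 in OVA and -4.87 in PBS.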
